A study of Mus musculus with 9 samples.

Results

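Aminoacyl-tRNA synthetases attach each amino acid to its tRNA, and 38 of the 27179 genes counted in these libraries encode one. They were found by symbol: a letter followed by "ars", with or without a number, plus Farsa, Farsb, Eprs and Tarsl2. Of the 38 genes, 21 encode cytosolic and 17 mitochondrial enzymes, with Gars and Kars, which each supply both compartments, counted as cytosolic. Splenic B cells of wild-type mice, obtained as CD43- cells, were activated for 72 h, lysed and used for RNA immunoprecipitation sequencing (RIP-seq), in which the RNA that comes down with an antibody is sequenced. Per the labels the stimuli were CD40L (5 ug/mL), anti-IgM antibody (10 ug/mL) and IL-4 (20 ng/mL), whereas the methods of the study give anti-CD40 antibody in place of CD40L. Groups of 3 libraries each were made from such cells: RNA brought down by anti-phospho-UPF1 antibody (p-UPF1), RNA precipitated with normal rabbit IgG, and RNA of the lysate (input). All groups shared genotype, tissue and stimulation. The statistics section of the study describes its plotted samples in general as independent biological replicates, and for these libraries the sources used here do not name separate mice or cultures, so the P values measure the spread between these libraries.

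UPF1 is an RNA helicase of nonsense-mediated mRNA decay (NMD), the pathway that removes mRNAs whose translation ends too far from a normal mRNA end, and it is phosphorylated when decay is set in motion on an mRNA. Long 3′ UTRs, introns behind the stop codon and upstream reading frames are known features of NMD targets. In mammals, the cytosol and the mitochondria charge their tRNAs with largely separate enzymes, all encoded in the nucleus. Several cytosolic enzymes sit in the multi-synthetase complex, and many cytosolic synthetase genes are induced by ATF4, the transcription factor of the amino acid response. B cells that are about to divide or secrete antibody make much protein, and so depend on charged tRNA.

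Total counts ran from 17372510 to 24945286 per library, and 13129 genes passed the filter on low counts, all 38 synthetase genes among them. All 8 B cell markers examined were at 1 CPM (counts scaled to a common library total) or more in input, against 0 of 6 T cell, 0 of 2 NK cell, 0 of 2 erythroid and 0 of 2 platelet markers. All 3 plasma cell markers passed that level, as did 1 of 5 myeloid markers, Adgre1. The B cell markers summed to between 9166 and 9310 CPM in input, between 5272 and 5309 CPM with IgG, and between 3361 and 3425 CPM with the p-UPF1 antibody. The myeloid markers moved the same way, and summed to between 127 and 139 CPM in input, between 85.9 and 91.6 CPM with IgG, and between 57.2 and 59.3 CPM with the p-UPF1 antibody. The part of either list in the results was not tested. Levels below are CPM scaled by TMM factors, fold changes are on the log2 scale with the standard error of the fit, and adjusted P values are from the quasi-likelihood test of edgeR, Benjamini-Hochberg adjusted over all 13129 genes. All changes are relative to the other RNAs in a library, not absolute amounts of RNA, and fewer cells of a type cannot be told apart from less RNA per cell.

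Cytosolic synthetase mRNAs were mostly depleted from the p-UPF1 precipitate, while the mitochondrial ones spread in both directions. Over IgG, 19 of the 21 cytosolic genes were lower and 2, Wars and Yars, were higher, whereas of the 17 mitochondrial genes 8 were lower, 5 were higher and 4 did not pass the test. Among all genes tested, 42.2% were lower and 40.4% higher over IgG. The median log2 fold change was −0.97 for cytosolic and −0.09 for mitochondrial genes, against −0.03 for all genes tested. With input as the background, 19 cytosolic genes were again lower and 2 higher, and of the mitochondrial genes 7 were lower, 7 higher and 3 neither. In that comparison, 42.6% of all genes were lower and 40.8% higher, and the medians were −1.03, −0.12 and −0.03 for cytosolic, mitochondrial and all genes. The mitochondrial median over input turned to 0.0068 with an IgG library as the TMM reference and to 0.012 with no low-count filter. Both comparisons use the same 3 p-UPF1 libraries, so their likeness is not independent.

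Over IgG, 12 synthetase genes were lower and 3 higher by 1 or more on the log2 scale, against 21.9% and 22.2% of all genes. The 12 comprised 10 cytosolic and 2 mitochondrial genes. Over input there were 14 lower and 2 higher synthetase genes of that size, against 24.5% and 22.5% of all genes. The higher ones were Hars2 and Wars, and with Ears2 and Lars2, which lay just below that size (0.9999 and 0.96), they numbered 4 with RLE factors, an IgG TMM reference, no low-count filter or DESeq2. The study's criterion for a p-UPF1-bound mRNA asks for 1 or more over IgG and 2 or more over input on the log2 scale, each at an adjusted P below 0.05, and 6.25% of all genes met it. Of the synthetases, 1 of 38 did, Hars2.

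Counted by library rather than by fit, 19 cytosolic and 6 mitochondrial genes had every p-UPF1 library below every IgG and input library, a pattern held by 37.6% of all genes. The opposite pattern was held by 2 cytosolic and 6 mitochondrial genes, and by 37% of all genes. So every cytosolic gene was fully separated from both backgrounds, and 5 mitochondrial genes, Lars2, Sars2, Pars2 and Aars2 among them, were not. The fitted values of 37 genes are drawn in the plot of fold changes.

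**Figure D1:**
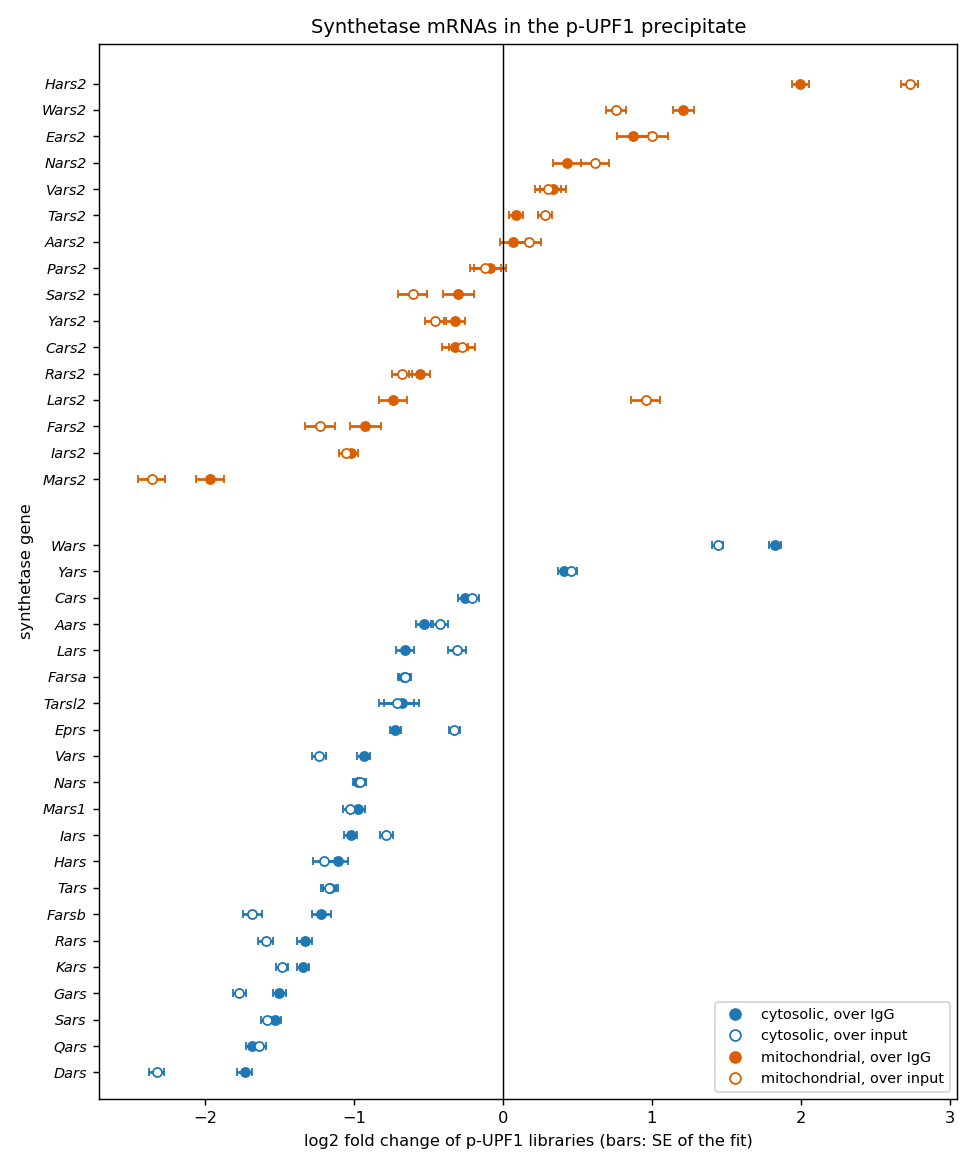
Log2 fold change of the p-UPF1 libraries over IgG (filled points) and over input (open points) for 37 of the 38 synthetase genes, with the standard error of the fit as bars and the cytosolic genes in blue, the mitochondrial ones in orange. The cytosolic genes lie left of 0 except for Wars and Yars; the mitochondrial genes run from Mars2 (−1.97 over IgG) to Hars2 (2.0), and Lars2 lies on opposite sides of 0 for the 2 backgrounds.

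In input, the cytosolic mRNAs were the more abundant ones. Per kilobase of transcript, the level in input was between 2.98 CPM per kb (Tarsl2) and 259 CPM per kb (Nars) for cytosolic genes, and between 1.57 (Ears2) and 34.2 CPM per kb (Iars2) for mitochondrial genes. Gars, the glycyl-tRNA synthetase, stood at 255, Eprs, which charges both glutamate and proline tRNAs, at 206, and Hars2, the mitochondrial histidyl enzyme, at 11.2 CPM per kb. In the p-UPF1 libraries the order differed: Wars led with 307 CPM per kb, followed by Eprs with 164 and Yars with 157, and Hars2 rose to 74.4 CPM per kb, the highest level among the mitochondrial genes.

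Wars, the cytosolic tryptophanyl-tRNA synthetase, which is known as an interferon-induced gene, had the largest enrichment of the cytosolic set. Its level was 207, 209 and 209 CPM in the input libraries, 156, 155 and 167 CPM with IgG, and 560.3, 573 and 563 CPM with the p-UPF1 antibody. Each p-UPF1 library was thus far above all 6 others, and IgG lay below input. The log2 fold change was 1.83 ± 0.040 (SE) over IgG (edgeR adjusted P = 2.16e-16) and 1.44 ± 0.039 over input (adjusted P = 2.41e-15). Over input this is below the 2 that the binding criterion asks for.

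Yars, the cytosolic tyrosyl-tRNA synthetase, was the other cytosolic gene above background. It was at 276, 279 and 268 CPM in input, 269, 287 and 292 CPM with IgG, and 374, 384 and 371 CPM with the p-UPF1 antibody. The input and IgG levels overlapped and the p-UPF1 libraries lay above all 6, with a rise of 1.33-fold over IgG (log2 0.41 ± 0.040, edgeR adjusted P = 6.89e-08) and 1.37-fold over input. Cars, which charges cysteine tRNA, was the least depleted of the remaining 19, with a log2 fold change of −0.25 ± 0.047 over IgG (edgeR adjusted P = 1.10e-04). Its levels of 203, 201 and 198 CPM in input, 221, 205 and 196 CPM with IgG, and 181, 169 and 172 CPM with the p-UPF1 antibody show how close the groups came. Over input it was at −0.21, and it was not called there with an IgG library as the TMM reference (−0.08) or with no low-count filter (−0.076).

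The lowest cytosolic values over IgG belonged to Dars, Qars and Sars, which charge aspartate, glutamine and serine tRNAs. Dars was at 339, 342 and 343 CPM in input, 208, 232 and 240.1 CPM with IgG, and 66.4, 69.4 and 68.5 CPM with the p-UPF1 antibody. It was 3.33-fold lower over IgG (log2 −1.74 ± 0.051, edgeR adjusted P = 9.05e-15) and 5.01-fold lower over input, and part of the second difference was already present in the IgG precipitate, which stood 0.59 below input on the log2 scale (log2 −0.59). Qars, with 199, 203 and 193 CPM in input, 208, 198 and 209 CPM with IgG and 62.3, 63.7 and 65.1 CPM with the p-UPF1 antibody, was 3.22-fold lower over IgG (log2 −1.68 ± 0.043, edgeR adjusted P = 1.48e-15). For Qars the IgG and input levels overlapped. Sars, at 602, 623 and 599.9 CPM in input, 587, 579 and 588 CPM with IgG and 204, 205 and 198 CPM with the p-UPF1 antibody, was 2.89-fold lower over IgG (log2 −1.53 ± 0.036, edgeR adjusted P = 6.63e-16). Over input, Dars (−2.33) was followed by Gars (−1.77), Farsb (−1.68), Qars (−1.64), Rars (−1.59) and Sars (−1.59).

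The multi-synthetase complex holds the enzymes encoded by Dars, Eprs, Iars, Kars, Lars, Mars1, Qars and Rars, and all 8 were lower over IgG, as were 42.2% of all genes tested. Their log2 fold changes had a median of −1.18, from −1.74 (Dars) to −0.66 (Lars), against a median of −0.94 for the 13 cytosolic genes outside the complex, of which 11 were lower and 2 higher. Both medians lie below the −0.03 of all genes tested. Eprs had the highest counts of any synthetase and was at 1008, 1022 and 1016 CPM in input, 1287, 1345 and 1378 CPM with IgG, and 826, 807 and 794 CPM with the p-UPF1 antibody. Its IgG level was above input, so that the depletion was deeper over IgG (log2 −0.72 ± 0.036, edgeR adjusted P = 8.92e-12) than over input (−0.33 ± 0.036). Iars and Lars had the same order of groups, with log2 fold changes of −1.02 and −0.66 over IgG and −0.79 and −0.31 over input.

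The mRNAs of the complex's scaffold proteins were lower as well. Eef1e1 (AIMP3) had the largest depletion of the 17 other tRNA-charging genes examined, with 64.9, 67.2 and 64.1 CPM in input, 42.1, 44.0 and 42.8 CPM with IgG, and 7.33, 7.95 and 6.53 CPM with the p-UPF1 antibody (log2 −2.56 ± 0.073 over IgG, edgeR adjusted P = 5.41e-15). Aimp1 stood at −1.73 and Aimp2 at −1.16 over IgG, both lower. Of the 17 genes, 10 were lower, 4 were higher and 3 did not pass the test, with a median of −0.67, where 42.2% of all genes were lower and 40.4% higher, with a median of −0.03.

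The 4 higher genes of tRNA charging were Sepsecs, Atf4, Gatb and Trnt1. Sepsecs, which makes selenocysteine on its tRNA, had the largest rise, from 18.7, 21.7 and 20.3 CPM in input and 22.0, 21.9 and 19.4 CPM with IgG to 62.2, 59.7 and 60.6 CPM with the p-UPF1 antibody (log2 1.53 ± 0.067 over IgG, edgeR adjusted P = 1.78e-12). Atf4 was higher by 1.13 over IgG and 0.59 over input. Gatb, a subunit of the amidotransferase that makes mitochondrial glutaminyl-tRNA, and Trnt1, which adds the CCA end to tRNAs, were higher by 0.68 and 0.65 over IgG. The other subunits of that amidotransferase did not follow Gatb, as Gatc was lower (−0.92) and Qrsl1 did not pass the test (−0.09). Pstk, the kinase that acts just before Sepsecs, was lower, at −1.04.

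Of the 13 cytosolic synthetase genes listed as induced by ATF4 (Aars, Cars, Eprs, Gars, Iars, Lars, Mars1, Nars, Sars, Tars, Vars, Wars and Yars), 11 were lower over IgG and 2, Wars and Yars, were higher, with a median of −0.94. The 8 other cytosolic genes were all lower, with a median of −1.28. Of all genes tested, 42.2% were lower and 40.4% higher, with a median of −0.03. So both enriched cytosolic mRNAs belonged to the induced list, as did most of the depleted ones, while Atf4 itself was higher.

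The promoter letters that ATF4 is known to bind are shown here for the induced list. That list holds 13 of the 21 cytosolic genes, with both enriched ones and 11 of the 19 lower ones among them. ATF4 with C/EBP partners binds a composite element, searched here as TGATGNAA on either strand, which overlaps no other motif searched, in RefSeq promoter windows of GRCm38.p6 from 250 bases before to 50 after the start of a RefSeq transcript, which for Aars and Yars lies inside the gene's annotated span. Windows were found for 28 of the 38 genes, 14 in each compartment. The letters were present in 5 of 14 cytosolic and 0 of 14 mitochondrial windows, and in 4.51% of the 27025 genes with a window. The stretches below are 30 bases long, 5′ to 3′ on the gene's strand, with the element in capitals, and for each gene the match nearest that transcript start is shown.
Aars, chr8:111033840-111033869, plus strand: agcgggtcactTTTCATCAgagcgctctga
Gars, chr6:55037960-55037989, plus strand: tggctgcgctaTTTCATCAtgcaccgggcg
Iars, chr13:49682126-49682155, plus strand: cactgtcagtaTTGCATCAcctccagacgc
Tars, chr15:11399655-11399684, minus strand: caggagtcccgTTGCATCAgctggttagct
Yars, chr4:129189895-129189924, plus strand: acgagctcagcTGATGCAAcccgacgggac
All 5 genes are on the induced list, and of the rest of that list the windows of Eprs, Mars1 and Sars were searched and did not hold the letters. The letters are forward in Yars and reverse in Aars, Gars, Iars and Tars. Over IgG, Yars was higher and Aars (−0.53), Gars (−1.50), Iars (−1.02) and Tars (−1.16) were lower, as were 19 of the 21 cytosolic genes. Wars, the other enriched cytosolic gene, is not among the 5. A relation of the letters or their strand to precipitation was not tested. A match of letters is no evidence of binding.

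Hars2, the mitochondrial histidyl-tRNA synthetase, was the most enriched synthetase mRNA and the only one to meet the binding criterion. It was at 36.2, 34.7 and 34.3 CPM in input, 59.1, 63.4 and 52.7 CPM with IgG, and 231, 233 and 237 CPM with the p-UPF1 antibody. The 3 groups did not overlap, and IgG lay between the others. The log2 fold change was 2.0 ± 0.056 over IgG (edgeR adjusted P = 4.37e-15) and 2.73 ± 0.058 over input (adjusted P = 1.37e-16), or 3.99-fold and 6.64-fold. By fold over IgG it was rank 926 among the 13129 genes, and it kept between 1.84 and 2.08 over IgG and 2.66 and 2.86 over input under every alternative run.

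Wars2 and Ears2, the mitochondrial tryptophanyl and glutamyl enzymes, were the next most enriched mitochondrial genes over IgG, while over input Ears2 (0.9999) and Lars2 (0.96) came before Wars2 (0.76). Wars2 was at 20.0, 20.3 and 19.7 CPM in input, 14.6, 13.7 and 15.5 CPM with IgG, and 34.8, 33.5 and 33.3 CPM with the p-UPF1 antibody (log2 1.21 ± 0.070 over IgG, edgeR adjusted P = 6.56e-11). Tryptophan was thus the amino acid whose cytosolic and mitochondrial enzyme mRNAs both rose by more than 1 over IgG, and both had IgG below input. Ears2 was at 9.37, 10.1 and 11.4 CPM in input, 10.8, 9.75 and 13.0 CPM with IgG, and 19.6, 20.8 and 21.1 CPM with the p-UPF1 antibody (log2 0.87 ± 0.11 over IgG, edgeR adjusted P = 1.09e-06). Nars2 and Vars2, for asparagine and valine, were higher by 0.43 ± 0.095 (edgeR adjusted P = 5.85e-04) and 0.33 ± 0.087 (adjusted P = 2.20e-03) over IgG. Vars2 did not pass the test with upper-quartile factors (0.20) or with library size alone (0.17).

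Mars2, the mitochondrial methionyl enzyme, was at the other end of the whole set. Its levels were 23.4, 22.6 and 23.1 CPM in input, 17.9, 17.2 and 17.5 CPM with IgG, and 4.13, 4.60 and 4.71 CPM with the p-UPF1 antibody. It was 3.92-fold lower over IgG (log2 −1.97 ± 0.093, edgeR adjusted P = 4.15e-12) and 5.13-fold lower over input, and it is the only intronless gene among the 38, with 1 exon. The 239 single-exon coding genes tested had a median of −0.53 over IgG, with 38.1% above 0. Whether the lack of introns bears on the value of Mars2 was not tested. Iars2, for isoleucine, had 122, 124 and 119 CPM in input, 121, 121 and 115 CPM with IgG, and 56.0, 59.8 and 59.8 CPM with the p-UPF1 antibody (log2 −1.02 ± 0.046 over IgG, edgeR adjusted P = 2.15e-12). Fars2, for phenylalanine, had 20.3, 18.5 and 20.7 CPM in input, 17.4, 14.8 and 16.0 CPM with IgG, and 8.26, 9.48 and 7.61 CPM with the p-UPF1 antibody (log2 −0.93 ± 0.10 over IgG, edgeR adjusted P = 3.56e-07).

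Rars2, Cars2, Yars2 and Sars2, for arginine, cysteine, tyrosine and serine, were lower by less, from −0.56 to −0.30 over IgG. Aars2, Tars2 and Pars2, for alanine, threonine and proline, were among those that did not pass the test over IgG, with values of 0.07, 0.09 and −0.09. Without IgG library A, Aars2 (0.17) and Tars2 (0.11) passed it. Tars2 also passed with an IgG TMM reference (0.11) or no low-count filter (0.13), and Pars2 was lower with library size alone (−0.25), while Sars2 lost its call without IgG library B (−0.18) or p-UPF1 library C (−0.26). Tars2 was higher over input (0.28 ± 0.047, edgeR adjusted P = 3.64e-05), with 62.9, 61.6 and 64.0 CPM in input, 74.5, 68.4 and 72.6 CPM with IgG and 77.1, 75.2 and 76.6 CPM with the p-UPF1 antibody. Its p-UPF1 and IgG levels were next to each other, and IgG was itself above input.

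**Figure D2:**
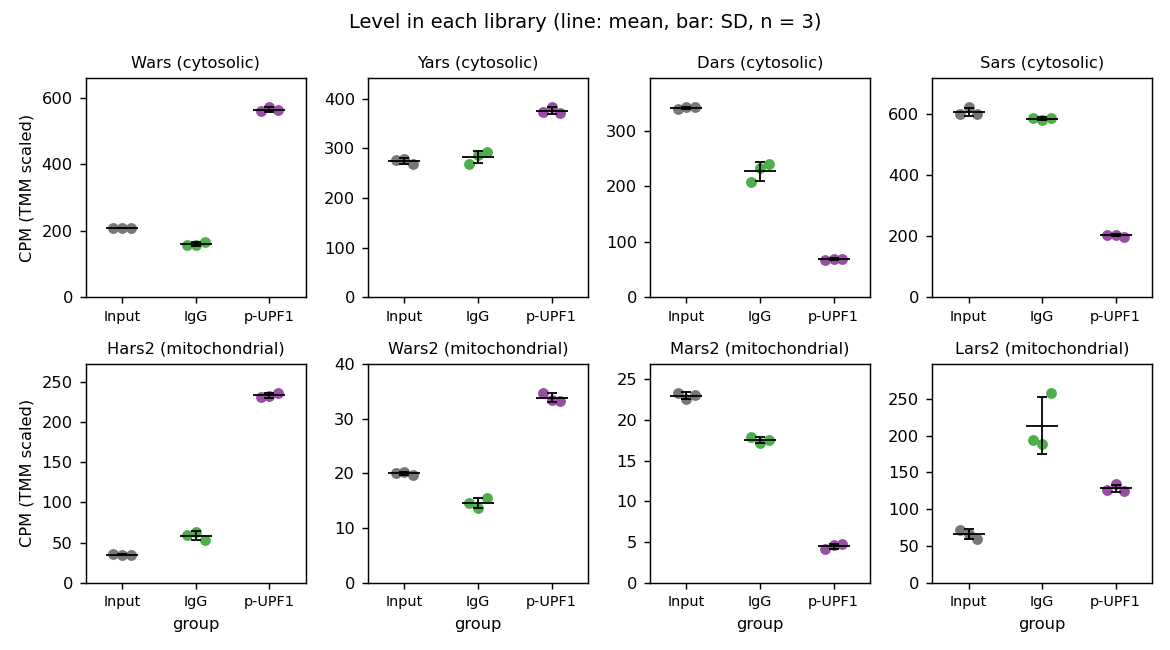
TMM-scaled level in CPM (linear axis from 0) of 8 synthetase mRNAs in each of the 9 libraries, by group, with the mean as a line and the SD as a bar (n = 3). The p-UPF1 points lie above both backgrounds for Wars, Yars, Hars2 and Wars2 and below both for Dars, Sars and Mars2; for Lars2 they lie between input (59 to 72 CPM) and IgG (189 to 259 CPM).

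Lars2, the mitochondrial leucyl-tRNA synthetase, was the synthetase whose direction depended on the background. It was at 71.9, 66.9 and 58.9 CPM in input, 194, 189 and 259 CPM with IgG, and 126, 134 and 125 CPM with the p-UPF1 antibody. All p-UPF1 libraries were above all input and below all IgG libraries. It was lower by 0.74 over IgG (log2 −0.74 ± 0.095, edgeR adjusted P = 1.99e-06) and higher by 0.96 ± 0.10 over input (adjusted P = 1.48e-07), and the IgG precipitate held 3.24-fold more than input (log2 1.69 ± 0.10, adjusted P = 2.01e-09). The 3 IgG libraries also spread more for this gene than the others did (SD 38.9 CPM, against 6.55 CPM in input and 5.26 CPM with the p-UPF1 antibody).

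The IgG precipitate differed from input for 17 of the 38 genes, 6 higher (Lars2, Hars2, Eprs, Lars, Iars and Tars2) and 11 lower (Dars, Farsb, Wars2, Wars, Mars2, Sars2, Fars2, Vars, Gars, Rars and Kars). Among all genes, 18.2% were higher and 34.7% lower. The count of higher synthetase genes depends on the scaling, and was 13 with library size alone. Of the 6, Lars2 (1.69) and Hars2 (0.73) had the largest values, and Dars (−0.59) the lowest of the 38. The calls of Sars2, Fars2 and Kars (−0.31, −0.30 and −0.14) also depended on the setting: all 3 were lost with upper-quartile factors, library size alone, an input or IgG TMM reference, no low-count filter or only the 2 groups in the fit, which left 8 lower genes. Fars2 was also not called without input library C (−0.28). No synthetase but Lars2 reached 1 in size on the log2 scale.

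The pair of enzymes for the same amino acid gives a comparison within a library, which no scaling can change. The comparison covered 15 pairs over 14 amino acids, since phenylalanine has 2 cytosolic subunits, Farsa and Farsb, set against the same Fars2. Between IgG and p-UPF1 libraries the cytosolic-to-mitochondrial ratio was lower without overlap for 7 pairs, higher without overlap for 3 (Mars1/Mars2, Yars/Yars2 and Wars/Wars2) and overlapping for 5. Between input and p-UPF1 libraries it was lower for 9, higher for 5 and overlapping for 1. With 3 libraries against 3, the exact two-sided permutation test cannot give a p below 0.10, which it gave for each pair without overlap, and over the 45 comparisons of pairs the smallest Benjamini-Hochberg value was 0.132. No pair could therefore pass a threshold of 0.05.

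The histidine pair moved most. The level of Hars was 4.03 times that of Hars2 in input and 2.26 times with IgG, but 0.263 times with the p-UPF1 antibody, so the mitochondrial mRNA outnumbered the cytosolic one there. On the log2 scale the ratio was 1.94, 2.05 and 2.05 in input, 0.97, 1.25 and 1.33 with IgG, and −1.93, −1.88 and −1.97 with the p-UPF1 antibody, a difference of −3.10 ± 0.11 (SE) from IgG. The cytosolic mRNA fell and the mitochondrial one rose: Hars was at 138, 144 and 142 CPM in input, 115, 150.4 and 132 CPM with IgG, and 60.6, 63.2 and 60.5 CPM with the p-UPF1 antibody (log2 −1.11 ± 0.072 over IgG, edgeR adjusted P = 2.88e-10). The genes are neighbours on chromosome 18, with Hars on the minus strand at 36766528 to 36783205 and Hars2 on the plus strand at 36783202 to 36792562 (GRCm38), so they share 4 bases at their starts.

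For the other pairs the ratio moved in both directions. Nars over Nars2 went from 42.8 and 38.2 to 14.4, and Sars over Sars2 from 34.1 and 40.9 to 17.3. The methionine pair went the other way, from 9.05 in input and 11.4 with IgG to 22.8, since Mars2 was depleted more than Mars1. The leucine pair was at 5.26 in input, 2.08 with IgG and 2.17 with the p-UPF1 antibody, so it did not separate the precipitates.

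**Figure D3:**
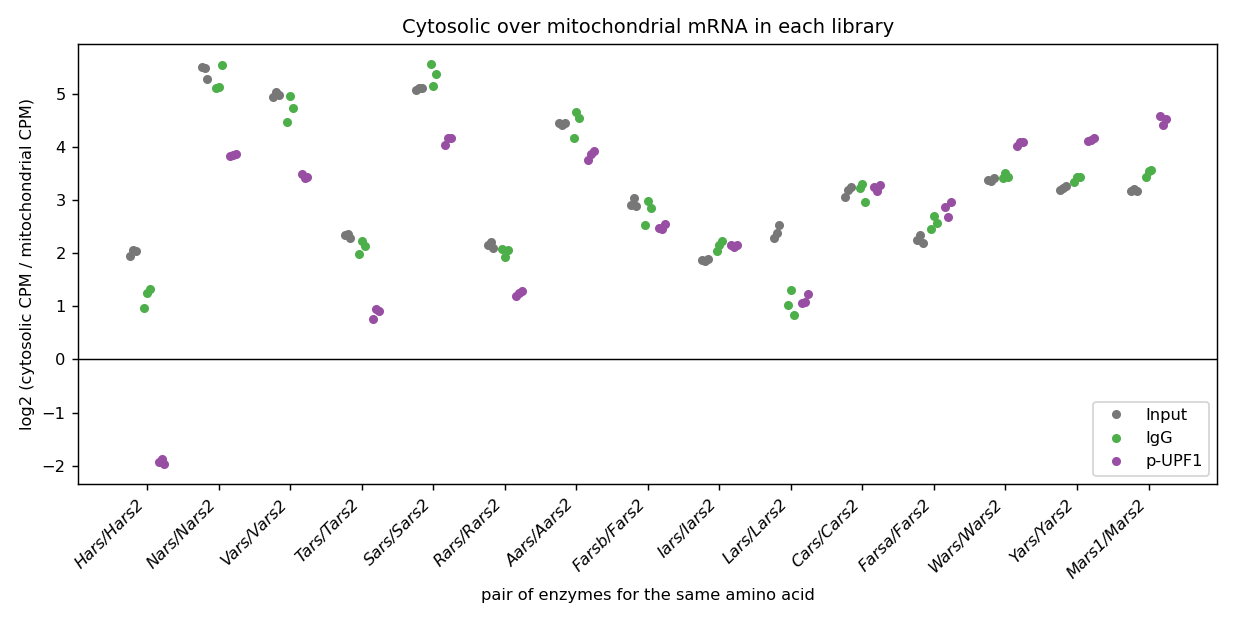
Log2 ratio of the cytosolic to the mitochondrial synthetase CPM for the same amino acid in each of the 9 libraries (points), 15 pairs ordered by the difference between p-UPF1 and IgG. The histidine pair lies below 0 in the p-UPF1 libraries only (−1.97 to −1.88), and Mars1/Mars2, Yars/Yars2 and Wars/Wars2 lie highest in them.

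Summed over genes, cytosolic synthetases took 0.740% ± 0.00038 (SD, n = 3) of all input counts, 0.803% ± 0.017 with IgG and 0.435% ± 0.0051 with the p-UPF1 antibody. Mitochondrial synthetases took 0.0568% ± 0.00095, 0.0782% ± 0.0035 and 0.0725% ± 0.00086. The ratio of the sums was 13.0 ± 0.22, 10.3 ± 0.49 and 5.99 ± 0.066, with no overlap between groups, and the log2 difference between p-UPF1 and IgG was −0.78. Hars2 alone held 6.08% of the mitochondrial sum in input, 7.99% with IgG and 30.7% with the p-UPF1 antibody. Without Hars2 the log2 difference was −0.37, and without Hars2 and Lars2 it was −0.52. Without both, the ratio was 15.7 to 16.0 in input and 15.4 to 16.9 with IgG, so these groups overlapped, while the p-UPF1 libraries (11.3 to 11.6) stayed below both.

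Ribosomal protein genes were mostly depleted, while the mitochondrial synthetases as a set lay near all genes tested (median −0.03 over IgG). The 77 mitochondrial ribosomal protein genes tested had a median of −1.39 over IgG, with 65 lower and 10 higher, and the 78 cytosolic ribosomal protein genes a median of −2.80, with 77 lower, against 42.2% lower and 40.4% higher among all genes. The medians of the mitochondrial (−0.09) and cytosolic (−0.97) synthetases lie above both. No test over genes was applied to these differences.

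Features of the transcripts were taken from the RefSeq transcript with the longest coding sequence for each gene. Synthetase 3′ UTRs are short, with a median of 379 nt (348 nt for cytosolic and 724 nt for mitochondrial genes) against 1015 nt for the 11902 coding genes tested. Of the 38 genes, 7 have a 3′ UTR of 1000 nt or more, and 4 of these, Ears2 (4913 nt), Wars2 (3296 nt), Nars2 (2045 nt) and Hars2 (1433 nt), were enriched over IgG. These 4 are also the members of the 7 with a value above 0 (57.1%), a share of 63.1% among all coding genes with a 3′ UTR of that length. Sars (1966 nt) and Mars2 (1058 nt) were depleted. The 7 had a median of 0.43 over IgG and the 31 with a shorter 3′ UTR a median of −0.72, whereas the medians for all coding genes were 0.41 at 1000 nt or more and −0.39 below.

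Wars (282 nt) and Yars (699 nt) were the enriched genes with short 3′ UTRs among the cytosolic enzymes, as was Vars2 (923 nt) among the mitochondrial ones. Across genes, Spearman's rho between 3′ UTR length and the log2 fold change over IgG was 0.32 over all 38 genes, 0.17 over the 21 cytosolic, 0.56 over the 17 mitochondrial and 0.36 over all 11902 coding genes. Genes share libraries and are not independent replicates, and no p is given. The rho for GC content was 0.16 and for exon number −0.18 over the 38 genes.

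**Figure D4:**
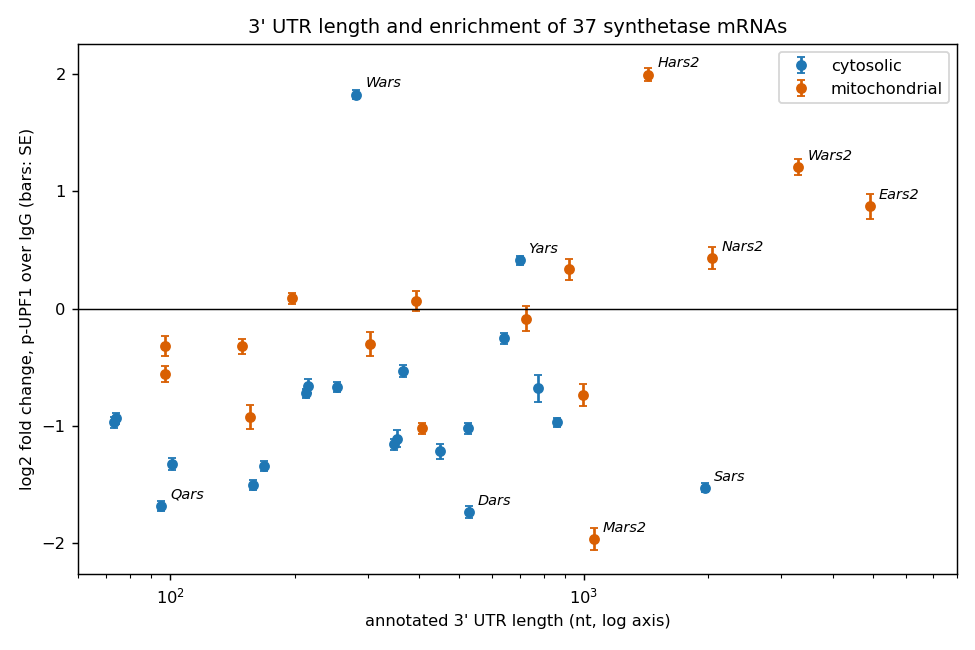
Log2 fold change of p-UPF1 over IgG (bars, SE of the fit) against the annotated 3′ UTR length in nt (log axis) for 37 of the 38 synthetase genes, cytosolic in blue and mitochondrial in orange. Ears2, Wars2, Nars2 and Hars2 lie in the upper right, Sars and Mars2 in the lower right, and Wars (282 nt) is high at a short length.

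None of the 38 chosen transcripts has an exon junction more than 50 nt behind the stop codon, an arrangement found in 35 of the 11902 coding genes, whose median was 1.14 over IgG. GENCODE lists a transcript of the NMD class for 12 cytosolic and 9 mitochondrial genes. Those 21 genes had a median of −0.66 over IgG, against −0.81 for the 16 genes with GENCODE entries but no such transcript, while the medians for all coding genes were 0.17 and −0.06. Entries were matched by gene symbol, and none was found under the symbol Mars1, so that gene is in neither class. Over IgG, the cytosolic medians were −0.85 with and −1.34 without an NMD-class transcript, and the mitochondrial ones −0.30 and −0.07, in the opposite order. Over input, both compartments had the same order, at −0.72 and −1.54 for cytosolic and 0.28 and −0.12 for mitochondrial genes. Wars, Yars, Wars2, Nars2 and Vars2 have a listed NMD-class transcript, while Hars2 and Ears2 have none. Counts per gene do not show which transcript was precipitated.

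The spans of 9 of the 38 genes overlap a tested gene on the opposite strand, and whether the counting used strand is not given for these libraries. The partner moved opposite to the synthetase for Mars1, which shares 71 nt with Ddit3 (2.39 over IgG, against −0.97 for Mars1), and for Aars, which shares 3974 nt with Ddx19b (2.05, against −0.53). Hars and Hars2, which share 4 nt, are among the 9 as well and moved in opposite directions (−1.11 and 2.0). How reads from the shared bases were counted is not given in the sources used here, so counts of these genes are uncertain to that extent. The part of this in their values was not tested. With the 9 genes overlapping such a gene left out, Hars2 among them, the log2 difference of the summed ratio was −0.67.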

How the data were processed

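The authors deposited raw read counts per gene for 9 RIP-seq libraries (3 input, 3 IgG and 3 p-UPF1); per the labels, reads were trimmed with cutadapt, aligned to mm10 with HISAT2 and counted with featureCounts, with versions and strand setting not given in the sources used here. Genes were named through NCBI Gene IDs in RefSeq GRCm38.p6 (25275 of 27179 matched). Genes were filtered with filterByExpr at its defaults (minimum count 10, minimum total 15), which kept 99.9% of the counts, scaled by TMM and tested in 1 model of the 3 groups with edgeR 4.0.16 (glmQLFit, glmQLFTest, two-sided, 6 residual degrees of freedom) in R 4.3.3. Pairs were compared by exact permutation tests over libraries (scipy). The fit was tested on simulated data. Alternatives used DESeq2 1.42.0 and limma 3.58.1 (voom), other scalings and filters, 9 fits each leaving out a library, and the column letter as a block. All synthetase genes could be named, with values per library for the bound gene and the 3 highest and 3 lowest of each compartment; Lars2, Eprs, Hars and Tars2 were added after their values were seen. Members and lists were chosen with earlier results of these data known. Reads held no molecular identifiers, so amplified copies were counted separately. The counts over the 38 genes include 1 gene that is not reported singly here and is left out of the pairs.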

Additional observations from a re-analysis of the deposited data

How the results depend on the processing

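Of 91 single-gene values, 12 changed call or sign under at least 1 of 22 alternatives. The calls of Hars2, Wars, Yars, Wars2, Mars2, Dars, Qars and Lars2 over both backgrounds were not among them. Over input, Aars2 (0.17, not called) passed the test under 9 alternatives (RLE factors, an input or IgG TMM reference, no low-count filter, the 1 CPM filter, DESeq2, only the 2 groups, and without IgG library A or B), and Cars2 (−0.28) lost its call with an IgG reference (−0.15) or no filter (−0.14). Signs turned only near 0. Upper-quartile factors gave −0.071 for Aars2 and −0.050 for Tars2 over IgG, and library size alone gave −0.097 and −0.076. For Aars2, an input TMM reference gave −0.019, and leaving out each library in turn −0.0029 (IgG library B) to 0.17 (IgG library A). Over input, an IgG TMM reference gave 0.0068 for Pars2, and no low-count filter 0.012. The mitochondrial median over input turned to 0.0068 and 0.012 with the same settings.

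Scaling moved medians with the median of all genes, which shifted to −0.17 (upper quartile), −0.19 (library size) and −0.12 (input reference) over IgG, and to 0.10 (IgG reference) over input. The cytosolic median over IgG became −1.11, −1.13 and −1.06, then −0.95 (IgG reference) and −0.93 (no filter), and the mitochondrial one −0.22, −0.25 and −0.17, then −0.044 (no filter). Over input, the cytosolic median was −1.10 (upper quartile), −0.90 (IgG reference) and −0.90 (no filter), and the mitochondrial one −0.19 (upper quartile). Higher genes of at least 1 over input numbered 4 with RLE factors, an IgG reference, no filter or DESeq2. Synthetases higher in IgG over input numbered 10 (upper quartile), 11 (no filter), 12 (2 groups only) and 13 (library size, input or IgG reference), and the lower ones 8 with each of these. Of all genes called between IgG and input, 34.4% were higher, against 45.1% (upper quartile), 52.6% (library size), 51.2% (input reference) and 50.2% (IgG reference). The summed ratio's log2 difference was −0.67 without overlapping genes and, as alternatives chosen after seeing the data, −0.37 without Hars2 and −0.52 without Hars2 and Lars2.

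The 9 fits that each lacked a library gave 7 to 9 higher and 26 to 27 lower genes over IgG, 9 to 13 lower by at least 1, medians of −1.02 to −0.94 (cytosolic) and −0.17 to −0.043 (mitochondrial), 9 to 10 higher and 26 to 27 lower over input, and 1 bound gene each time. The causes were not tested. The count columns carry the letters A to C in each group, which no source ties to a shared lysate or to the labels' replicate numbers. Deviations of libraries with the same letter correlated at 0.020 to 0.080 across genes, and each library correlated best with its own letter, a hint from the data only. With the letter as a replicate block, an alternative chosen after seeing the data with 4 residual degrees of freedom, the synthetase counts were 7 higher and 27 lower over IgG, 9 and 26 over input, 7 and 11 between IgG and input, 3 higher by at least 1 over input and 1 bound gene, and no single-gene call among the 91 changed. The SE over IgG reached 0.12 (Tarsl2).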
